A study of Danio rerio with 12 samples.

Results

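A group of 150 probe sets was followed whose signal rose in wild-type (WT) zebrafish embryos between 75% epiboly (75%E) and tailbud (TB), the end of gastrulation, after no rise of that size between 30% epiboly (30%E) and 75%E. They were taken from 15502 probe sets by the WT values alone. A probe set had to have a mean WT TB log2 signal of 7 or more (a linear signal of 128) and a mean WT change from 30%E to 75%E under 1 in log2 units, which 4833 probe sets met. Those were ranked by the mean WT TB minus mean WT 75%E, and the first 150 were kept. The WT rise that chose them is given as a description only. Comparisons of QKD with WT at one stage share the WT arrays with the choice, and their p-values are to be read with that limit. The change of the same probe sets in the knockdown embryos was measured on arrays that the choice did not use.

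The study asked how the transcriptome changes when the B1 *sox* genes are knocked down together. All 12 samples were whole embryos of the TL strain, and per the labels the RNA of each came from 100 embryos. WT embryos were uninjected. QKD (quadruple knockdown) embryos were injected with morpholino oligonucleotides (MOs), antisense oligonucleotides that block translation, against *sox2*, *sox3*, *sox19a* and *sox19b*. WT and QKD embryos were each sampled at 30%E, 75%E and TB with 2 biological replicates per stage, which makes 6 groups. RNA was hybridised to 1-colour Affymetrix arrays, on which several short probes report each transcript. With uninjected embryos as the control, effects of injection and of the knockdown cannot be told apart in these arrays. How QKD embryos were matched to a stage is not given in the sources used here. The paper reports a delay in epiboly in QKD embryos, which had not finished it when normal embryos were at tailbud. WT and QKD embryos of one stage label may therefore differ in age or in form. The part of this delay in the differences between QKD and WT was not tested. Since whole embryos were used, fewer cells of a type and less RNA per cell cannot be told apart either. The median signal was 73.5 to 76.6 over the 12 arrays.

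B1 SOX proteins are HMG-box transcription factors that are made throughout the early ectoderm and later in the neural plate, where they are known for holding cells in a neural progenitor state. By tailbud the zebrafish body axis has been laid out. The neural plate is divided into forebrain, midbrain, hindbrain and spinal cord, *hox* genes mark positions along the trunk, and somites and the lateral plate mesoderm begin to take form, so many regional regulators and differentiation genes come on around this stage.

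In WT embryos the 150 probe sets rose by 1.0 to 4.89 log2 units from 75%E to TB, with a median of 1.38. They carried 106 distinct gene symbols on 111 probe sets. Another 38 had no symbol, and 1 was annotated to several genes and is given by its ID alone. At the edge of the selection the WT rise was 0.999 and 0.995 for Dr.6082.1.A1_at and Dr.18238.1.A1_at at ranks 149 and 150, and 0.994 and 0.991 for *cxcl12a* and *lrrn1* just outside. The limit thus ran through a dense part of the ranking.

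A first signal at tailbud described only some of them. In 57 probe sets the mean WT signal lay below the median of all signals (6.23 in log2 units) at both early stages, and their WT medians went from 5.0 at 30%E and 5.47 at 75%E to 7.48 at TB. In 35 others the WT signal fell by 1 or more from 30%E to 75%E before it rose again, with medians of 8.34, 6.33 and 7.53. The remaining 58 were above the median of all signals at 1 or both early stages without such a fall, with medians of 6.81, 7.05 and 8.29. The first shape held 41 of the 50 highest ranks and 4 of the 50 lowest. *bmi1a*, which encodes a subunit of the Polycomb repressive complex PRC1, had the second shape, with a WT signal of 620 and 628 at 30%E, 46.2 and 72.6 at 75%E, and 244 and 224 at TB. *hoxc6b*, a trunk *hox* gene, had the first, with 8.7 and 10 at 30%E, 12.6 and 13.1 at 75%E, and 219 and 148 at TB. Every *hoxc6b* array before tailbud was far below both TB arrays, whereas *bmi1a* was highest at 30%E. The probe sets are therefore called tailbud-rising here rather than tailbud-specific.

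**Figure D1:**
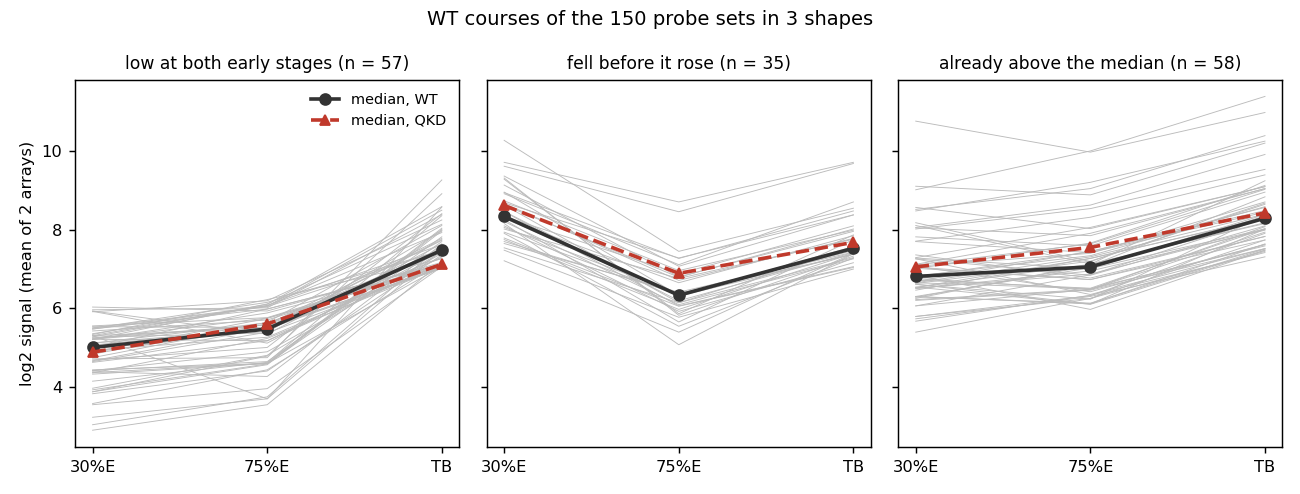
Mean log2 signal at 30%E, 75%E and TB for the 150 tailbud-rising probe sets, split by the shape of the WT course (thin grey lines, 1 per probe set; black circles, WT median; red triangles, QKD median). In the left panel the WT median ends at 7.48 and the QKD median at 7.12, and the middle panel starts at a WT median of 8.34 before the fall to 6.33.

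Most of the tailbud-rising probe sets also rose in QKD embryos. A contrast of QKD TB against QKD 75%E in limma, fitted to the log2 signals of all 12 arrays with Benjamini-Hochberg adjustment over the 15502 probe sets and a threshold of 0.05, called 126 of the 150 higher (84.0%), where 12.1% of all probe sets were called higher. It called 0 of them lower (10.2% of all), and 0 were lower at an unadjusted p under 0.05. The median QKD rise was 1.01 log2 units with a range of -0.35 to 4.71. For the other 4683 probe sets that met both limits of the rule the median was -0.04. In 143 of the 150, both QKD TB arrays were above both QKD 75%E arrays (30.1% of all probe sets). In 2, both were below (30.2% of all). The QKD rise was 1 or more in 77 (51.3%, beside 2.35% of all), and 51 of the 126 called rose by less than 1.

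A rise under 1 that was not called was found in 22 of the 150 (14.7%), where 87.9% of all probe sets had such a value. The share rose when any single QKD 75%E or QKD TB array was left out, most without QKD TB replicate 1. A lone array in a group lowers the precision, so fewer rises can be called. The share of all probe sets was not counted in those fits. Another 2, *schip1* and 1 of the 2 tailbud-rising *tmem263* probe sets, rose by 1.19 and 1.53 without being called. The array carries 3 *tmem263* probe sets, and the one outside the 150 changed by 0.25 in QKD, not called. WT and QKD arrays of a stage with the same replicate number deviated together (r = 0.488 across probe sets at TB), so the QKD TB arrays were not wholly separate from the arrays that made the choice. The QKD rise was not tested against the WT rise, because the WT rise was what the probe sets were chosen for.

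**Figure D2:**
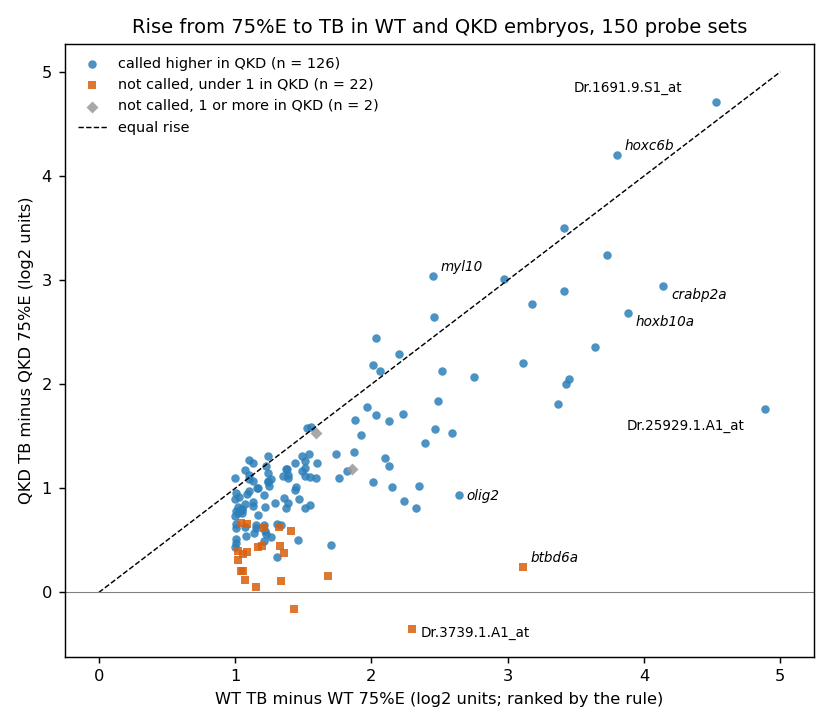
WT TB minus WT 75%E (x axis) against QKD TB minus QKD 75%E (y axis), both in log2 units, for the 150 tailbud-rising probe sets, each point the difference of means of 2 arrays. Blue circles were called higher in QKD (126), orange squares were not called and rose by less than 1 (22), and grey diamonds were not called at 1 or more (2). The dashed line marks an equal rise, and points start at 1.0 on the x axis because of the selection.

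Transcription factors made up 20 of the named genes, a grouping drawn after the values were seen. In QKD embryos 19 of them rose, with a median rise of 1.70. The WT median of 2.46 is a description only, because the WT rise chose the members. They were mostly of the first shape, 17 of 20. At TB, 6 were called lower in QKD than in WT and 2 higher. Of all probe sets, 12.1% rose in QKD, 3.21% were lower than WT at TB and 3.15% higher, and these shares stand behind the counts of the following groups too.

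Among the *hox* genes, which set position along the body axis, *hoxc6b* rose to the WT level and *hoxb10a* did not. The QKD signal of *hoxc6b* was 12 and 13.9 at 75%E and 230 and 243 at TB, both of the latter above the WT values of 219 and 148. Its QKD rise was 4.2 ± 0.16 log2 units (SE, n = 2 arrays per group; limma adjusted p = 9.46e-08), and the difference from WT at TB was not called (0.39, adjusted p = 0.221). *hoxb10a*, expressed further posterior, went from 7.5 and 8.5 to 63.4 and 41.4 in QKD and from 13.0 and 13.8 to 243 and 159 in WT. All its TB arrays were above all 75%E arrays, and both QKD TB arrays were well below both WT TB arrays. The QKD rise of 2.68 ± 0.22 was called (limma adjusted p = 1.94e-05), and so was the difference from WT at TB, -1.94 ± 0.22 (adjusted p = 0.000307).

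*hoxa9b* and *hoxd4a*, of the tail and the hindbrain, also had lower TB signals in QKD. For *hoxa9b* they were 82.3 and 60.2 against 178 and 99.7 in WT, without overlap. The difference of -0.92 was not called (limma adjusted p = 0.0649) but was called when the replicate number entered the fit of each stage as a block (adjusted p = 0.00563). *hoxd4a* was the transcription factor whose QKD rise was not called, 0.59 (adjusted p = 0.0551), with 52.6 and 44.1 at 75%E and 67.4 and 78.2 at TB. Several alternatives did call it, with the lowest adjusted p, 0.0246, with the replicate number as an additive block. Its WT TB arrays read 170 and 113, and the QKD difference of -0.93 at TB was called (adjusted p = 0.0167). The other *hoxd4a* probe set, with a WT TB log2 signal of 5.75, changed by 0.44 in QKD, not called (limma adjusted p = 0.246). It differed from WT at TB by -1.3 (limma adjusted p = 0.00888).

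The genes of the neural plate fell into several patterns. *olig3*, a bHLH factor of the dorsal spinal cord, reached 193 and 232 in QKD at TB against 345 and 312 in WT, from 20.2 and 24.9 at 75%E. It rose by 3.24 ± 0.13 (limma adjusted p = 9.46e-08) and ended 0.64 log2 units below WT (adjusted p = 0.011). *gbx2*, needed for the anterior hindbrain and the midbrain-hindbrain boundary, ended at 115 and 94.6 against 245 and 160, a difference of -0.92 (adjusted p = 0.0146), after a rise of 1.81. Both genes rose in QKD embryos and remained below every WT TB array.

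*pax2a*, a regulator of the midbrain-hindbrain boundary, ear and kidney, rose from 26.8 and 25.8 to 188 and 171 in QKD and from 27.3 and 22.8 to 246 and 208 in WT. The QKD rise of 2.77 ± 0.12 was called (limma adjusted p = 2.16e-07) and the difference at TB was not (-0.33, adjusted p = 0.145), although the arrays did not overlap and the replicate block called it (adjusted p = 0.0393). Its relative *pax8* was similar, with a QKD rise of 1.24 and a difference of -0.37 at TB (adjusted p = 0.099; with the block 0.0316). *dmbx1a*, a midbrain homeobox gene, rose by 1.59 in QKD and by 1.56 in WT.

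*sox1a*, a B1 *sox* gene that the MOs did not target, had a QKD signal of 15.2 on both 75%E arrays and 92.2 and 52.8 at TB. WT embryos reached 152 and 118. The QKD rise was 2.2 (limma adjusted p = 8.06e-05), and QKD ended lower by 0.94 (adjusted p = 0.0343). The array carries 2 more *sox1a* probe sets, which rose in QKD by 0.89 (called) and by 0.12 (not called) and were not called lower than WT at TB, so the lower value holds for 1 of 3.

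*olig2* and *sox4a* were up in QKD embryos before tailbud. *olig2*, a bHLH factor of motor neuron progenitors, read 112 and 154 on the QKD 75%E arrays against 23.3 and 33.5 in WT, and 282 and 224 against 186 and 162 at TB. The 75%E difference was 2.23 (limma adjusted p = 4.11e-05), while at TB it was 0.53 and not called (adjusted p = 0.156), although the arrays did not overlap and the replicate block called it (adjusted p = 0.00472). The later QKD rise of 0.94 was called (adjusted p = 0.00552), but not without QKD 75%E replicate 1 (0.71, adjusted p = 0.0581) or QKD TB replicate 1 (0.77, adjusted p = 0.0595).

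*sox4a*, a SoxC factor of differentiating neurons, read 65.9 and 84.3 against 20.7 and 28.2 at 75%E, a difference of 1.63 (limma adjusted p = 0.00178). By TB the QKD values of 393 and 243 overlapped the WT values of 312 and 223, with a difference of 0.23 (adjusted p = 0.751). At 30%E both genes were low in all WT and QKD arrays, and the QKD and WT values of *sox4a* overlapped.

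The mesodermal genes *hand2* and *tcf15* reached or passed the WT TB values in QKD embryos. *hand2*, a bHLH factor of the lateral plate that is needed for the heart and fins, rose in QKD from 33.4 and 36.1 to 376 and 412, by 3.50 ± 0.11 (limma adjusted p = 3.03e-08), with 370 and 314 in WT at TB. *tcf15*, a bHLH factor of somites, rose from 47.5 and 49.3 to 340 and 272, by 2.65 ± 0.15 (adjusted p = 1.56e-06), with 328 and 232 in WT. The differences at TB were 0.21 and 0.14, with 95% intervals of -0.03 to 0.44 and -0.2 to 0.48, and neither was called. Of 26 measured genes of somite and muscle, 8 were higher and 4 lower in QKD TB than in QKD 75%E. At TB, 2 of them were lower and 1 higher than WT. Of 20 measured genes of pronephros, heart and lateral plate, 6 were higher and 3 lower in QKD TB than in QKD 75%E. At TB, 2 of these were lower and 1 higher than WT. *sox9b*, a neural crest factor, rose by 1.02 in QKD (adjusted p = 0.0302), a call that was lost without QKD 75%E replicate 1 (0.87), QKD 75%E replicate 2 (1.18) or QKD TB replicate 1 (0.75), and its other probe set changed by 0.10.

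**Figure D3:**
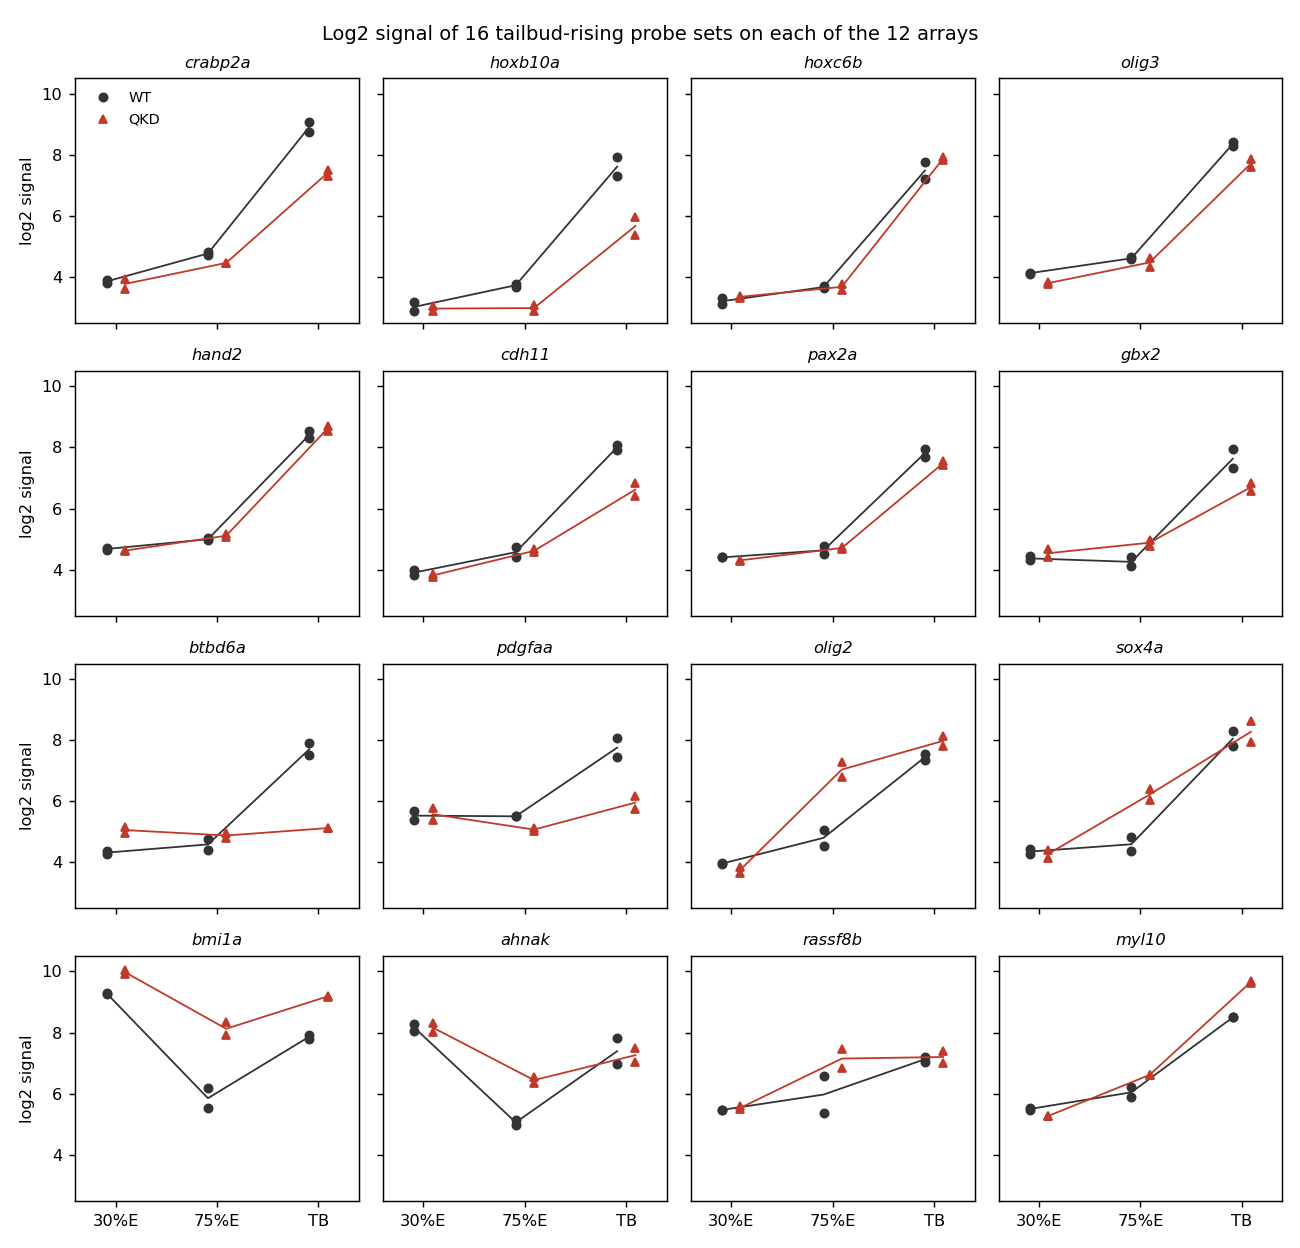
Log2 signal on each of the 12 arrays (symbols; WT, black circles; QKD, red triangles; 2 arrays per group) and group means (lines) for 16 named tailbud-rising probe sets at 30%E, 75%E and TB. The QKD TB arrays lie below the WT TB arrays for *crabp2a*, *hoxb10a*, *cdh11*, *btbd6a* and *pdgfaa*, beside them for *hoxc6b* and *hand2*, and *olig2*, *sox4a* and *bmi1a* are above WT at 75%E.

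Of 7 ligands, receptors and their modulators, all 7 rose in QKD embryos and 1 was called lower than WT at TB. That one was *pdgfaa*, a ligand of the platelet-derived growth factor receptors, singled out after its values were seen. Its QKD signal was 34.7 and 32.7 at 75%E and 71.6 and 53.9 at TB, where WT read 45.5 on both arrays and then 268 and 173. The QKD rise was 0.88 ± 0.21 (limma adjusted p = 0.0116), and the TB difference was -1.79 ± 0.21 (adjusted p = 0.000398). At 75%E the difference of -0.44 was not called (limma adjusted p = 0.269), but the replicate block within each stage called it (adjusted p = 0.011). *bmp3*, a member of the BMP family, rose to the WT range in the same embryos. It read 250 and 140 in QKD and 176 and 154 in WT at TB, from 23.1 and 23.2 in QKD at 75%E, a rise of 3.01 ± 0.22 (adjusted p = 7.64e-06). The Activin and BMP antagonist *fsta*, the Notch ligand *jag2b*, the receptor *fgfr3*, *pth2ra* and *plxnb2a.1* rose by 1.70, 1.26, 0.83, 1.78 and 1.24, and none of these differed from WT at TB by a called amount.

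Adhesion and matrix genes gave 9 probe sets of 7 genes, of which 7 rose in QKD embryos and 3 were called lower than WT at TB. *cdh11*, a type II cadherin, read 114 and 85.2 in QKD at TB against 271 and 244 in WT, after 25.5 and 23.8 against 21.2 and 27.0 at 75%E. It rose by 2.0 ± 0.16 (limma adjusted p = 1.35e-05) and ended 1.38 below WT (adjusted p = 0.000281). The other *cdh11* probe set gave a rise of 1.39 and a difference of -1.04, both called. The other 2 called lower were *cldng*, a claudin of tight junctions (-1.12), and *dag1*, which encodes the laminin receptor dystroglycan (-1.10). *dag1* was also the only one of the 150 called lower at 75%E (-0.47, limma adjusted p = 0.0496), a call near the threshold that was lost without either WT 30%E array, either QKD 30%E array or QKD 75%E replicate 1. Both *alcama* probe sets and *jam3b*, of the immunoglobulin superfamily, rose by 1.35, 2.13 and 1.44.

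*crabp2a*, a cellular retinoic acid binding protein, was the named gene with the largest WT rise, 4.14. Its QKD signal went from 22 and 22.4 at 75%E to 182 and 160 at TB, and its WT signal from 26.5 and 28.5 to 543 and 432. Both WT and QKD signals were low at 75%E and far higher at TB, and no QKD TB array came near a WT TB array. The QKD rise was 2.94 ± 0.14 (limma adjusted p = 2.95e-07) and the TB difference -1.51 ± 0.14 (adjusted p = 7.49e-05). *rarga*, a retinoic acid receptor, rose by 0.62 in QKD (adjusted p = 0.00438) and differed from WT by -0.36 at TB (adjusted p = 0.13). Of 13 measured genes of the retinoic acid pathway, 5 were higher and 1 lower in QKD TB than in QKD 75%E, and 5 were lower and 0 higher than WT at TB.

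Genes of small-molecule and lipid metabolism, with *crabp2a* among them, numbered 15, of which 13 rose in QKD embryos, 5 were lower than WT at TB and 1 was higher. *apoa4b.1*, an apolipoprotein gene known for expression in the yolk syncytial layer, read 120 and 106 in QKD at TB against 270 and 235 in WT, with 34.4 and 44.2 against 35.5 and 49.5 at 75%E. It rose by 1.53 (limma adjusted p = 0.000105) and ended lower by 1.16 (adjusted p = 0.00158). Its neighbour in name, *apoa4b.2*, ended lower by 0.40 (adjusted p = 0.0455), a difference that its other probe set did not show (0.25, adjusted p = 0.525). Of 21 measured genes of the yolk syncytial layer, 4 were lower and 0 higher than WT at TB, and their summed signal was 39595 to 41284 on the QKD TB arrays and 44470 to 45181 on the WT TB arrays. Its part in the *apoa4b* values was not tested.

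Of 9 genes of actomyosin and cell shape, 4 rose in QKD embryos, with a median rise of 0.51, and 5 were already called higher than WT at 75%E. Of all probe sets, 12.1% and 4.49% had these calls. The WT median of 1.09 comes from the rise that chose the members and is a description only. At TB, 0 were lower and 2 higher. *ccdc88c*, whose mammalian protein binds Dishevelled, read 173 and 201 at 75%E in QKD against 86.5 and 89.7 in WT, and 255 and 184 against 198 and 170 at TB. It was called higher than WT at 30%E, by 0.97 (limma adjusted p = 0.0024), and at 75%E, by 1.08 (adjusted p = 0.00147), and was not called at TB. Its QKD rise of 0.21 was not called (adjusted p = 0.389). *unc45b*, a myosin chaperone of muscle, was called higher than WT at 75%E only, by 1.01 (adjusted p = 0.0203). *dlg5a*, a scaffold of cell junctions, was called higher at 30%E (0.84, adjusted p = 0.0119). *arhgap35a* and *dlg5a* rose by 0.39 and 0.45, not called, and were called different from WT at neither 75%E nor TB. The block within each stage called both higher at 75%E (adjusted p = 0.0141 and 0.00823), and *unc45b* higher at TB as well (0.58, adjusted p = 0.00237).

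*shroom4* and *cita*, an actin-binding protein and a citron kinase, rose in QKD by 1.29 and 1.1 (limma adjusted p = 0.000957 and 0.000105), and neither was called different from WT at TB. *myl10*, a myosin light chain, had the largest QKD rise of the 9 genes. It rose in QKD from 98.3 and 98.0 to 791 and 824, by 3.04 ± 0.11 (limma adjusted p = 9.46e-08), whereas WT went from 59.1 and 74.1 to 361 on one array and 362 on the other. QKD exceeded WT by 1.16 at TB (adjusted p = 0.000119) and by 0.57 at 75%E (adjusted p = 0.00931). *myo18ab*, an unconventional myosin, was also higher at both stages, by 1.22 and 0.73.

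All 7 probe sets of 6 genes of the secretory pathway rose in QKD embryos, by a median of 1.02. The WT median of 1.25 comes from the rise that chose the members and is a description only. None was called different from WT at TB, and 3 were higher at 75%E. They included *kdelr2b* and *tmed3*, which encode cargo receptors between the endoplasmic reticulum and the Golgi and rose by 1.07 and, on 2 probe sets, 1.12 and 1.02.

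The 22 probe sets with an uncalled QKD change under 1 showed several patterns. In 17 of the 22 the upper 95% bound of the QKD change was under 1. In 15 both QKD TB arrays were above both QKD 75%E arrays, so small upward differences were common among them. At 75%E and TB, 9 were called higher than WT at 75%E and not called at TB, 4 were called lower at TB only, 2 were called higher at 75%E and lower at TB, and 7 were called at neither stage. With the replicate block within each stage these counts were 10, 6, 3 and 1, and another 2 were higher at both stages. Of all probe sets, 4.49% were higher at 75%E and 3.21% lower at TB (9.11% and 6.34% with the block). Of the 150, these shares were 31.3% and 17.3% (51.3% and 27.3% with the block). The 22 were picked by a small change between QKD arrays that also enter these calls. A QKD 75%E value high by chance, or a QKD TB value low by chance, favours both. The split is therefore a description only.

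*btbd6a* was the clearest case of a signal that remained low. Its product is an adaptor of a ubiquitin ligase that is known in zebrafish for promoting neurogenesis. WT read 21.4 and 27.1 at 75%E and 239 and 182 at TB, while QKD read 28.0 and 31.0 and then 35.1 and 34.6. The QKD TB values lay within the range of the QKD 30%E arrays, which read 35.4 and 31.4. Those were called higher than the WT 30%E arrays, at 20.6 and 19.4 (0.74, limma adjusted p = 0.01). The QKD change of 0.24 ± 0.15 was not called (limma adjusted p = 0.297), and the TB difference of -2.58 ± 0.15 was (adjusted p = 2.3e-06). The other 3 called lower at TB only were *hoxd4a*, *cldng* and Dr.10938.1.A1_at. *cldng* was not low at any stage, with 277 and 444 at 75%E and 510 and 580 at TB in QKD against 966 and 1446 in WT at TB, and it was already called lower than WT at 30%E (-0.96, limma adjusted p = 0.0185). Of 4 *cldng* probe sets on the array, only this one was tailbud-rising. From 75%E to TB the others went from 7.19 to 6.79, 9.85 to 10.2 and 10.47 to 10.76 in WT log2 signal. In the same order they differed from WT at TB by 0.35 (not called), -1.15 and -1.01 (both called). Dr.10938.1.A1_at, which carries no symbol, read 57.4 and 40.2 at 75%E and 57.1 and 50.5 at TB in QKD, against 143 and 122 in WT at TB.

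More often the QKD signal was already above WT at 75%E. Besides *ccdc88c* and *unc45b*, these 9 included *rassf8b*, *kidins220b*, *pgam1a*, 1 of 2 *nectin3b* probe sets, Dr.21306.1.A1_at and Dr.1129.1.A1_at. From 30%E to 75%E in QKD, *pgam1a*, that *nectin3b* probe set and Dr.1129.1.A1_at were called lower (-1.19, -1.5 and -1.0). Over the same interval *kidins220b*, *rassf8b*, *unc45b* and Dr.21306.1.A1_at were called higher (1.5, 1.61, 1.78 and 2.12), and *ccdc88c* was not called. *kidins220b*, a scaffold of neurotrophin and ephrin receptors, read 150 and 134 in QKD at 75%E against 45.3 and 65.1 in WT, and 199 and 172 against 162 and 120 at TB. *rassf8b*, of the Ras-association domain family, read 114 and 176 in QKD at 75%E and 128 and 170 at TB, beside 133 and 148 in WT at TB. Its QKD change of 0.053 ± 0.32 was the least precise of these, and its 2 WT 75%E arrays differed widely, at 41.4 and 95.6.

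*spata13* and Dr.3739.1.A1_at crossed over. *spata13*, a guanine nucleotide exchange factor, read 113 and 115 at 75%E and 104 and 100 at TB in QKD, but 53.2 and 73.8 and then 174 and 164 in WT. Dr.3739.1.A1_at read 86.1 and 104 and then 85.7 and 64.0 in QKD, and 33.0 and 49.4 and then 205 and 194 in WT. For both, each QKD array was above WT at 75%E and below WT at TB. Their QKD changes were -0.16 and -0.35 (limma adjusted p = 0.483 and 0.257), and neither was called.

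The 7 called at neither stage were *c7b*, *sbf1*, *arhgap35a*, *dlg5a*, *fmo5*, *zgc:77614* and Dr.13163.1.A1_at. With the replicate block within each stage all but Dr.13163.1.A1_at were called at 1 or both stages, *c7b* at both (limma adjusted p = 0.0133 at 75%E and 0.0127 at TB), *sbf1*, *arhgap35a* and *dlg5a* higher at 75%E, and *fmo5* and *zgc:77614* lower at TB (adjusted p = 0.0128 and 0.00103). *c7b*, a complement component, read 141 and 160 at 75%E and 144 and 185 at TB in QKD, and 111 and 107 and then 184 and 283 in WT. *sbf1*, a pseudophosphatase related to the myotubularins, read 111 and 129 and then 159 and 138 in QKD. Their QKD changes were 0.12 ± 0.26 and 0.31 ± 0.19, and for *c7b* the arrays of the QKD stages overlapped.

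At TB, 26 of the 150 were called lower in QKD than in WT (17.3%, beside 3.21% of all probe sets) and 11 higher (7.33%, beside 3.15%). The median difference over the 150 was 0.04, beside 0.01 over all probe sets. Both QKD TB arrays were below both WT TB arrays in 50 (21.5% of all) and above them in 45 (25.7% of all). The WT TB arrays took part in the choice, and a WT value high by chance favours both membership and a lower QKD value. When members were chosen on the WT arrays of one replicate number and QKD was set against the WT arrays of the other, 14.0% and 15.3% were called lower (1.78% and 2.26% of all) and 9.33% and 4.00% higher (1.83% and 1.62%). With replicate numbers as a block within stages, 41 were called lower (27.3%, beside 6.34% of all) and 26 higher (17.3%, beside 7.26%). The share called lower fell without WT TB replicate 1 and without QKD TB replicate 2. The share called higher fell without WT TB replicate 2 and without QKD TB replicate 1. Those fits left a lone array in a group, and the shares of all probe sets were not counted in them.

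Lower calls at TB came mostly from the probe sets that were low before. Of the 57 of that shape, 19 were called lower and 4 higher, beside 3 lower and 2 higher of the 35 that fell first and 4 lower and 5 higher of the 58 others. The shapes rest on WT values that the choice used, and the median WT rise was 2.23 in the low shape and 1.21 in each of the others. The counts by shape are therefore a description only. The largest difference belonged to Dr.25929.1.A1_at, which has no symbol and had the largest WT rise of all. At 30%E it was already called lower in QKD, with 23.4 and 18.4 against 40.4 and 38.3 in WT (-0.92, limma adjusted p = 0.00202). It read 13.6 and 12.1 in WT and 16.3 and 12.6 in QKD at 75%E, and 390 and 374 in WT but 47.5 and 49.5 in QKD at TB. The difference was -2.98 ± 0.14 (limma adjusted p = 5.94e-07), although the QKD rise of 1.76 was called. Other named genes with lower TB signals were *anxa2a*, an annexin of the surface epidermis (-0.84), *ptgs1*, a prostaglandin synthase (-1.16), and *tfdp2*, an E2F partner (-1.09). The last pair were picked after their values were seen. By contrast, Dr.1691.9.S1_at, annotated to several genes, had the largest QKD rise, 4.71, and read 874 and 730 in QKD against 775 and 489 in WT at TB.

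The 11 higher at TB were led by *bmi1a* and *myl10*. *bmi1a* read 240 and 325 in QKD at 75%E against 46.2 and 72.6 in WT, and 593 and 570 against 244 and 224 at TB. QKD was above WT in every array of both stages, by 2.27 and 1.31 (limma adjusted p = 3.58e-05 and 0.00183), and also at 30%E, with 955 and 1064 against 620 and 628. The rest were *nt5c2l1* (1.13), *rtn1a* (1.0), the amino acid transporter *slc43a2a* (0.84), *myo18ab* (0.73), the homeobox gene *irx3a* (0.65), the zinc finger gene *znf423* (0.57), *hacd2* (0.52), Dr.3888.1.A1_at (0.45) and *cd164* (0.44). Apart from *myl10*, these were picked after their values were seen.

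At 75%E, before the WT rise, 47 of the 150 were called higher in QKD than in WT (31.3%, beside 4.49% of all probe sets) and 1 lower (0.667%, beside 3.9%). The median difference was 0.35, beside -0.02 over all probe sets. The selection favours this direction, because a WT 75%E value low by chance raises the rank, so these counts describe the members and are no independent result. With members chosen on one WT replicate number and QKD set against the other, 18% and 21.3% were called higher (2.83% and 3.25% of all, with 1 WT array on that side) and 4.00% and 0.667% lower (2.77% and 2.34%). The same-numbered arrays of a stage deviated together (r = 0.443 at 75%E), which this split does not take into account. With the replicate block within each stage, 77 were called higher (51.3%, beside 9.11%) and 4 lower (2.67%, beside 7.8%). Both QKD arrays were above both WT arrays at 75%E in 89 (21.7% of all) and below them in 9 (25.1% of all). The share called higher fell without either QKD 75%E array. Those fits left a lone array in that group, and the share of all probe sets was not counted in them.

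These 47 came from all shapes, 13 of the 57 low ones, 12 of the 35 that fell first and 22 of the 58 others. The largest were *bmi1a* (2.27), *olig2* (2.23), *sox4a* (1.63), *kidins220b* (1.39), *ahnak* (1.38) and *nt5c2l1* (1.33). *ahnak*, a large scaffold protein of epithelia, read 93.7 and 81.2 in QKD against 35.4 and 31.7 in WT at 75%E, after 258 and 321 against 265 and 309 at 30%E. At TB the arrays overlapped, at 179 and 132 against 224 and 126, and its QKD rise of 0.81 was called (limma adjusted p = 0.0309) but not without QKD 75%E replicate 1 (0.92), QKD 75%E replicate 2 (0.71) or QKD TB replicate 1 (0.59). Of the 47, 10 were still higher at TB, 34 were not called there and 3 were lower.

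**Figure D4:**
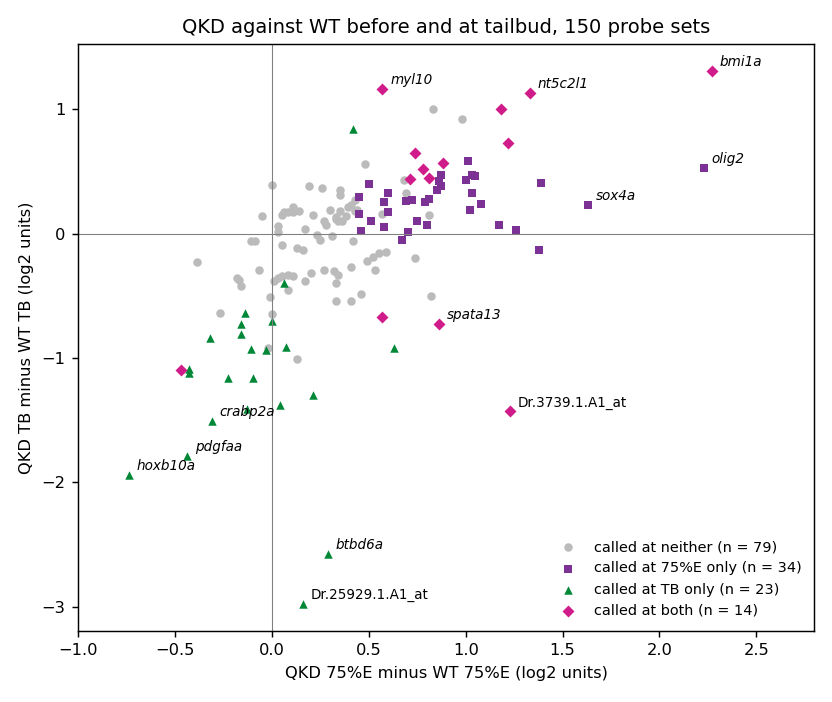
QKD minus WT at 75%E (x axis) against QKD minus WT at TB (y axis), both in log2 units, for the 150 tailbud-rising probe sets, with symbols by the limma call at each stage (79 at neither, 34 at 75%E only, 23 at TB only, 14 at both). *sox4a* lies far right at 0.23 on the y axis and *olig2* at 0.53, *btbd6a* lies low near 0 on the x axis, and *spata13* and Dr.3739.1.A1_at lie low on the right. WT arrays of both stages were used to choose the points.

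The earlier course of the QKD embryos alone was examined after the data were seen. From 30%E to 75%E, 74 of the 150 were called higher in QKD (49.3%, beside 30.9% of all probe sets) and 43 lower (28.7%, beside 29.4%). All 36 whose WT signal fell by 1 or more over this interval, the 35 of the second shape and Dr.25929.1.A1_at, were also called lower in QKD. The early fall was therefore seen in both WT and QKD embryos.

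At 30%E, 11 of the 150 were called higher in QKD (7.33%, beside 5.14% of all) and 2 lower (1.33%, beside 2.92%). With the replicate block within each stage these were 27 (18%, beside 9.02%) and 4 (2.67%, beside 5.23%). The share of members called higher was smaller with any 1 of the 30%E arrays left out. The share of all probe sets was not counted in those fits, so no background stands beside it.

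Regional and cell type lists, written from general knowledge of zebrafish development, held 18 of the 150 probe sets. For each listed gene the probe set with the highest mean was counted, which is not always the tailbud-rising one. Of 33 measured midbrain and hindbrain genes, with *pax2a*, *pax8*, *gbx2* and *hoxd4a* among the tailbud-rising, 18 were higher and 1 lower in QKD TB than in QKD 75%E, and 6 were lower and 2 higher than WT at TB. Of 20 genes of the spinal cord and posterior body, with *hoxb10a* and *hoxa9b*, 12 were higher and 2 lower in QKD TB than in QKD 75%E, and 5 were lower than WT at TB. Of 32 neuronal differentiation genes, with *olig2* and *olig3*, these counts were 8 and 7, and 6 were lower and 3 higher than WT.

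The other lists contributed few members. Of 23 genes of neural crest and plate border, with *sox9b*, 4 were higher and 5 lower in QKD TB than in QKD 75%E. At TB, 10 were lower and 2 higher than WT, and the summed signal was 4297 to 4706 in QKD and 8556 to 9194 in WT. The tailbud-rising *sox9b* probe set differed from WT at TB by -0.5, not called (limma adjusted p = 0.451). With the replicate block within each stage it was called (adjusted p = 0.02). Of 43 genes of surface epidermis and ionocytes, with *anxa2a* and *ahnak*, 6 were lower and 0 higher than WT at TB, and the summed signal was 58292 to 58309 in QKD and 63955 to 65310 in WT. Of 18 genes of cell cycle exit and stress, 0 were tailbud-rising, 4 were higher than WT at TB and 0 lower. Their summed signal was 24028 to 24839 in QKD and 22729 to 23991 in WT. The part of these cell types or of stress in the values above was not tested. Lists of notochord, prechordal plate, forebrain, blood and endoderm held 0 of the 150.

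The array carried 28 further probe sets for 24 of the member genes. In QKD embryos 18 of these were called higher at TB than at 75%E and 0 lower, where 12.1% of all probe sets were called higher and 10.2% lower. The *dmbx1a*, *fsta* and *jam3b* pairs rose together in QKD from 75%E to TB. Their further probe sets, however, had already risen in WT before tailbud, beyond the limit of the rule. From 30%E to 75%E these went from 5.37 to 6.82, 4.04 to 6.18 and 4.71 to 6.55 in WT log2 signal. For *olig3* and *hoxb10a* the further probe sets included ones with a WT TB log2 signal of 3.53 and 3.92, near the bottom of the array, and a QKD change of 0.36 and 0.37 that was not called. The remaining *hoxb10a* probe set gave a QKD rise of 1.44 and a TB difference of -1.06, both called.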

How the data were processed

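Per the labels, total RNA of whole embryos was hybridised to Affymetrix Zebrafish Genome arrays, and the authors processed the arrays with RMA (background correction, normalization between arrays and probe summary; version not given in the sources used here). The deposited values are linear intensity, and log2 of the deposited intensity was taken here. Of 15617 probe sets, 115 controls were left out and 15502 were tested, with no filter on low signals (132 of the 150 members passed a filter at the 40th percentile, used as an alternative). The platform annotation gave 1 gene symbol to 10795, several to 135 and none to 4572. Results for some genes are not reported here.

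Tests used R 4.3.3 and limma 3.58.1 (lmFit, eBayes; a mean for each of 6 groups, 6 residual and 5.11 prior degrees of freedom), with Benjamini-Hochberg adjustment over all probe sets tested. Precision is limited by having 2 arrays per group. The fit was tested on simulated data. Tables were handled in Python 3.11.15. Members, gene lists and role groups were chosen with earlier results of these data known. Genes were named when among the first 10 by rank, the 10 smallest or 10 largest QKD rises, or on a list; others were picked after their values were seen.

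Same-numbered WT and QKD samples of a stage deviated together (correlations of 0.615, 0.443 and 0.488 at 30%E, 75%E and TB, against -0.0835 to 0.183 between stages), so the replicate block within each stage is given beside comparisons of QKD with WT. Alternatives covered normalization, filtering, blocks, thresholds, the limits of the rule and each array left out.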

Additional observations from a re-analysis of the deposited data

Results flagged for a closer look

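In 3 probe sets QKD was called higher than WT at 75%E and lower than WT at TB, without overlap of arrays at either stage. Such a crossing without overlap, which chance alone can give with 2 arrays per group, was also seen in members without both calls, such as *btbd6a* and *gbx2*. The share of all probe sets with both calls was not counted. For Dr.3739.1.A1_at both QKD arrays were lower at TB than every QKD 75%E array (-0.35 log2 units) while WT rose, and QKD minus WT was 1.23 at 75%E and -1.43 at TB. For *spata13* these values were -0.16, 0.86 and -0.73. For Dr.5060.1.A1_at, QKD minus WT was 0.57 at 75%E and -0.67 at TB, although its QKD signal rose by 0.46. The differences between these effects were not tested, because the WT arrays of both stages chose the probe sets.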

How the results depend on the processing

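Each result was recomputed under each alternative that could be run, and 238 of 311 values for the counts and the median of the members came within 1.5 times, or for the median 1 SD (0.118), of the reported value. Shares below are percentages of the members. Shares of all probe sets were counted only in the main fit, with the block within each stage and for the choice on single replicates. The other alternatives have no background beside them. With the random replicate block (consensus correlation 0.401), 26.7% were lower and 14.7% higher than WT at TB, 48.7% higher and 1.33% lower at 75%E, and 15.3% higher and 3.33% lower at 30%E. With the block within each stage these were 27.3% and 17.3% at TB, 51.3% and 2.67% at 75%E, and 18% and 2.67% at 30%E. The additive block gave 1.33% lower at 75%E, and the filter on low signals 0.758% lower at 30%E. No block moved the count of QKD rises by over 1.5 times.

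At an adjusted p under 0.01, 24.0% had an uncalled QKD rise under 1, 4.67% were higher than WT at TB, 19.3% higher and 0% lower at 75%E, and 2.67% higher and 0.667% lower at 30%E. When a change of 1 or more was also required, 50% were called higher in QKD TB than in QKD 75%E, 48.7% had an uncalled rise under 1, 9.33% were lower and 2% higher than WT at TB, 12% higher and 0% lower at 75%E, 1.33% higher and 0% lower at 30%E, and 18% rose from 30%E to 75%E in QKD.

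Changing the limits of the choice moved the median QKD rise to 1.24 with a WT TB floor of 6, 0.72 with a floor of 8, 0.79 with a limit of 0.5 on the early WT change, 1.19 for the first 100, 0.86 for the first 200 and 1.57 for those low at both early stages. The floor of 6 gave 0.667% lower in QKD TB than in QKD 75%E and 4.67% higher at 30%E. A floor of 8 gave 8.67% lower and 4.67% higher at TB, 1.33% lower at 75%E and 2.67% lower at 30%E. The limit of 0.5 gave 23.3% rising from 30%E to 75%E in QKD, and the members that fell first in WT gave 0%. For the first 100, 9% had an uncalled rise under 1. Members chosen on WT replicate 1 and set against WT replicate 2 gave 18% higher and 4.00% lower at 75%E, and the reverse gave 4.00% higher at TB. The splits by WT shape and the choice on single replicates at 75%E were added after seeing the data.

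Leaving out each array in turn, with the lone array assumed to vary like the other groups, gave 66.0% to 86.7% called higher and 0% to 0.667% lower in QKD TB than in QKD 75%E, 12.7% to 32.7% with an uncalled rise under 1, and a median of 0.90 to 1.09. Against WT it gave 10% to 22% lower and 3.33% to 6.67% higher at TB, 16% to 35.3% higher and 0% to 2% lower at 75%E, and 2.67% to 8.67% higher and 0.667% to 2.67% lower at 30%E. From 30%E to 75%E, 39.3% to 53.3% rose in QKD. Leaving out a WT 75%E array kept 118 or 124 of the 150 members.

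Of 29 named probe sets, 22 kept the call on their QKD rise under every alternative run. The direction turned for *rassf8b* without QKD 75%E replicate 1 (-0.26) and without QKD TB replicate 2 (-0.15; 0.37 without QKD 75%E replicate 2), for *c7b* without QKD TB replicate 2 (-0.061; 0.30 without replicate 1), and for *ccdc88c* without QKD TB replicate 1 (-0.02; 0.45 without replicate 2), none of which had been called. Signals near the lower quartile of the array (4.49 in log2 units) limit what can be said of levels before tailbud.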
